A study of Mus musculus with 18 samples.

Results

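Primary mouse astrocyte cultures and the mouse neuroblastoma line Neuro-2A were compared in the 6 libraries of a microRNA mimic experiment that received only the control mimic, 3 libraries from each cell type out of 18 in the series. The members of the comparison are all expressed genes: of 53342 genes in the deposited count table, 18714 had enough reads to be tested. Both groups carried the same control, cel-miR-67, which copies a microRNA of the nematode and serves as a non-targeting mimic, given at 25 nM for 24 h with a lipid transfection reagent, so neither group is untreated. The astrocyte libraries are labelled as primary, wild-type cells, grown in DMEM/F12 with 15% serum and seeded at 900000 cells per mL. The Neuro-2A libraries are labelled as neuronal and not genetically modified, grown in minimum essential medium with non-essential amino acids, pyruvate and 10% serum and seeded at 600000 cells per mL. Cell type, medium, serum and seeding density therefore changed together and cannot be told apart. The labels give no donor strain, age or number of animals for the astrocytes, so strain may differ as well. They do not say that the 3 libraries of a group came from separate cultures, so the p-values measure the spread among these libraries.

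Astrocytes are the glial cells that take up synaptic glutamate, buffer potassium, deliver lipids to neurons and form a coupled network through gap junctions. Neuro-2A is a spontaneous mouse neuroblastoma line, a tumour of the sympathoadrenal branch of the neural crest, which grows continuously and extends neurites when made to differentiate. The comparison sets a primary brain glial culture beside a transformed line of the peripheral nervous system.

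Read counts per library ran from 20909429 to 27890926. Levels are given as TPM (transcripts scaled to a fixed library total), which correct for gene length; the deposited TPM values stop at a floor of 1 TPM, and "at the floor" means that no higher value was recorded. Fold changes were fitted to the counts with edgeR and are written as log2 values, astrocyte minus Neuro-2A, with their standard errors (SE). A gene was called where its Benjamini-Hochberg adjusted p was under 0.05. The 2 cell types differed at most genes: 8984 genes, 48% of those tested, were higher in the astrocyte libraries and 7745, 41.4%, were higher in Neuro-2A. Since nearly any list would hold many called genes, lists are also described by the genes that were called and at least 4 fold apart, which were 4392 genes or 23.5% of those tested for astrocytes and 2360 genes or 12.6% for Neuro-2A. Each count over a list below is to be read beside these shares of all tested genes. A gene with few or no reads in 1 group passed the filter only through the reads of the other group, which fixed its direction. The median log2 fold change of all tested genes was 0.139. Scaling by library totals alone moved it to -0.12 and upper-quartile scaling to -0.0336, so small differences between the groups depend on the scaling. With library totals, 7907 genes were higher in the astrocyte libraries and 8825 in Neuro-2A.

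Neuro-2A replicate 1 stood apart from replicates 2 and 3. A chi-square comparison of counts gave 16.8 and 11.6 per degree of freedom for replicate 1 against replicates 2 and 3, where the pair of replicates 2 and 3 gave 2.96 and the astrocyte pairs 1.83 to 3.09. Among the 21 glycolysis and lactate genes with at least 5 TPM in Neuro-2A, replicate 1 was the lowest of the 3 in 20, where over all 12137 such genes it was lowest in 42.6%. It was also lowest in 11 of 11 growth factor genes. By contrast it was the highest in 22 of 25 cholesterol genes and in 13 of 17 sympathoadrenal genes, against 39.3% of all genes. Results that rest on these lists are given with the replicate 1 value in view and, where they move, without it.

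**Figure D1:**
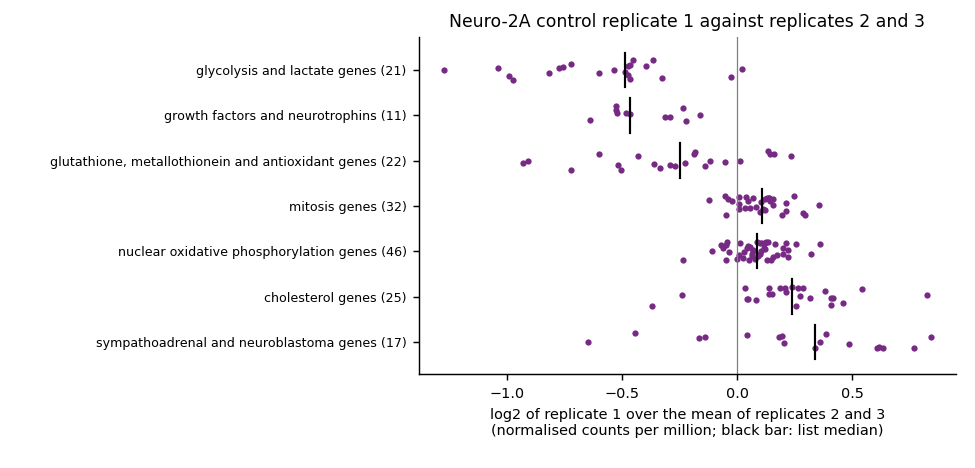
Each point is 1 gene, placed by the log2 ratio of its normalised counts (CPM) in Neuro-2A control replicate 1 to the mean of replicates 2 and 3, and black bars mark list medians. Glycolysis genes (21, median -0.489) lie to the left and sympathoadrenal genes (17, median 0.337) and cholesterol genes (25, median 0.238) to the right, and mitosis genes (32, median 0.108) lie slightly to the right, with replicate 1 the highest in 22.

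The labelled identities were first checked on Gfap and Tubb3. Gfap (ENSMUSG00000020932, mm10 chromosome 11, 102887336 to 102900912), the intermediate filament protein that defines astrocytes, stood at 5664, 5675 and 5434 TPM in the astrocyte libraries and at the floor in all 3 Neuro-2A libraries. Only 21 reads in total fell on it in Neuro-2A, against 525775 in the astrocyte libraries, a log2 fold change of 14.60 ± 0.118 (SE; edgeR adjusted p = 6.31e-12). Tubb3 (ENSMUSG00000062380, mm10 chromosome 8, 123411424 to 123422015), the tubulin of neurons, stood at 751, 571 and 585 TPM in Neuro-2A and at 55.8, 53.5 and 56.8 TPM in the astrocyte libraries. The groups did not overlap for either gene, yet Tubb3 was well above the floor in every astrocyte library. Its log2 fold change was -3.48 ± 0.108 (SE; edgeR adjusted p = 1.8e-09).

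All 18 tested genes of the 20 astrocyte markers were at least 4 fold higher in the astrocyte libraries, with a median log2 fold change of 10.89. Of the 20, 13 were at the floor in all Neuro-2A libraries, and 4 tested ones had no read there. Markers with few or no Neuro-2A reads passed the filter through the astrocyte libraries alone, so their direction was fixed by it. Slc1a3, which encodes the glutamate transporter GLAST, stood at 741, 730 and 694 TPM without a single read in any Neuro-2A library, at least 46070-fold higher when Neuro-2A is set at 3 reads over the group. Slc1a2, the other astroglial glutamate transporter, stood at 117, 119 and 108 TPM, also with 0 reads in Neuro-2A and at least 11280-fold higher. The water channel gene Aqp4 had 1867, 1829 and 1691 TPM, and Fabp7, a brain fatty acid carrier of radial glia and immature astrocytes, 1960, 1786 and 1859 TPM, both against the floor. Clu, a secreted chaperone, was the marker with most signal in Neuro-2A, at 42.6, 55.2 and 57.6 TPM there against 1646, 1733 and 1719 TPM. The untested markers were Gjb6, the gap junction gene of mature astrocytes, and Slc7a10, an amino acid transporter of mature astrocytes, which were at the floor in all 6 libraries.

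The astrocyte cultures also carried markers of other brain and connective tissue cells, which were nearly absent from Neuro-2A. Of the tested markers, 12 of 12 for microglia and 10 of 10 for the oligodendrocyte lineage were higher in the astrocyte libraries. So were 8 of 8 for ependymal cells and 8 of 9 for fibroblasts and mural cells, beside 48% of all tested genes. The list medians were 9.36, 6.10, 9.24 and 4.94 on the log2 scale, and 7.80, 5.76 and 8.08 for the first 3 lists with genes lacking reads in Neuro-2A put at their bound. At the floor in all Neuro-2A libraries were 9 of the 12 microglia, 7 of the 11 oligodendrocyte, 6 of the 8 ependymal and 6 of the 10 fibroblast and mural markers listed. Markers that passed the filter through the astrocyte libraries alone had their direction fixed by it. Acta2, smooth muscle actin, reached 1801, 1608 and 1788 TPM, Tagln, an actin-binding protein of smooth muscle, 1648, 1465 and 1622 TPM, and Foxj1, the master factor of motile cilia, 709, 773 and 743 TPM. The oligodendrocyte lineage factor Olig1 stood at 622, 609 and 634 TPM, and the microglial complement gene C1qa at 153, 187 and 167 TPM. Summed over each list, microglia markers made 626 to 710 TPM per astrocyte library oligodendrocyte markers 1121 to 1139 TPM, ependymal markers 1027 to 1106 TPM and fibroblast and mural markers 3139 to 3518 TPM, where the astrocyte markers made 16320 to 16940 TPM. In bulk RNA, fewer cells of a type and less RNA per cell cannot be told apart, and what part these cells had in the differences below was not tested.

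Neuro-2A carried a sympathoadrenal profile. Of 22 tested sympathoadrenal and neuroblastoma genes, 20 were higher in Neuro-2A, 19 of them at least 4 fold, and 1 was higher in the astrocyte libraries, also at least 4 fold, with a median log2 fold change of -6.67. Hand2, a transcription factor of sympathetic neurons, stood at 687, 450 and 437 TPM against the floor in every astrocyte library. Replicate 1 held its highest value. Isl1, a homeodomain factor of sympathetic and motor neurons, followed the same order with 47.4, 30.9 and 29.3 TPM and had no astrocyte read, a difference of at least 1035-fold. Ret, the receptor for GDNF family ligands, stood at 532, 459 and 463 TPM against 5.97, 6.18 and 6.42 TPM, a log2 fold change of -6.25 ± 0.0823 (SE; edgeR adjusted p = 1.43e-11). The granule proteins Chgb and Chga had log2 fold changes of -6.34 and -6.41, with Chgb at 958, 848 and 800 TPM in Neuro-2A.

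Chrnb4, a nicotinic receptor subunit, did not pass the test at the floor in all 6 libraries, and Hand1 and the noradrenaline transporter Slc6a2 had too few reads to be tested. Transcripts for catecholamine synthesis were low in Neuro-2A, as seen in Th, Dbh and Ddc, named after their values were seen. Th, which makes the dopamine precursor L-DOPA, had 11.1, 17.5 and 17.7 TPM in Neuro-2A. Dbh, which turns dopamine into noradrenaline, had 15.9, 7.52 and 9.49 TPM there. Both Th and Dbh were at the floor in the astrocyte libraries. Ddc did not reach a mean of 5 TPM in Neuro-2A. Synthesis itself was not measured.

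Pan-neuronal genes were split between the cell types. Of 20 tested, 15 were higher in Neuro-2A and 5 in the astrocyte cultures, 12 and 4 of them at least 4 fold. Prph, the intermediate filament of peripheral neurons, was the most abundant at 1794, 2161 and 2013 TPM in Neuro-2A against 1.09, 1.27 and 1.37 TPM, a log2 fold change of -10.59. Among the other filaments, the heavy neurofilament Nefh stood at 138, 144 and 155 TPM against the floor and alpha-internexin, Ina, at 134, 139 and 130 TPM against at most 1.44 TPM. The medium neurofilament Nefm ran the other way, with 2.31, 2.81 and 3.19 TPM in the astrocyte cultures and the floor in Neuro-2A. The light neurofilament Nefl had astrocyte reads and none in Neuro-2A, but was at the floor in all 6 libraries.

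Map2, the microtubule-associated protein of dendrites, was also higher in the astrocyte cultures, at 66.1, 66.2 and 63.5 TPM against 13.2, 12.2 and 13.9 TPM, a log2 fold change of 2.36 ± 0.0597 (SE; edgeR adjusted p = 5.1e-10). Dcx, the microtubule protein of migrating neuroblasts, and Dpysl5, a growth cone protein, were the remaining 2 genes higher there. Dcx did not exceed 1.09 TPM in any library, and on log2(TPM + 1) values with limma 3 of these 5 calls were made and 1, in place of 4, was at least 4 fold. Uchl1, an abundant neuronal deubiquitinase, was high in both cell types, at 878 to 946 TPM in Neuro-2A and 602 to 627 TPM in the astrocyte libraries. The vesicle fusion gene Snap25 stood at 42.04, 43.7 and 43.9 TPM in Neuro-2A against the floor, with no overlap.

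**Figure D2:**
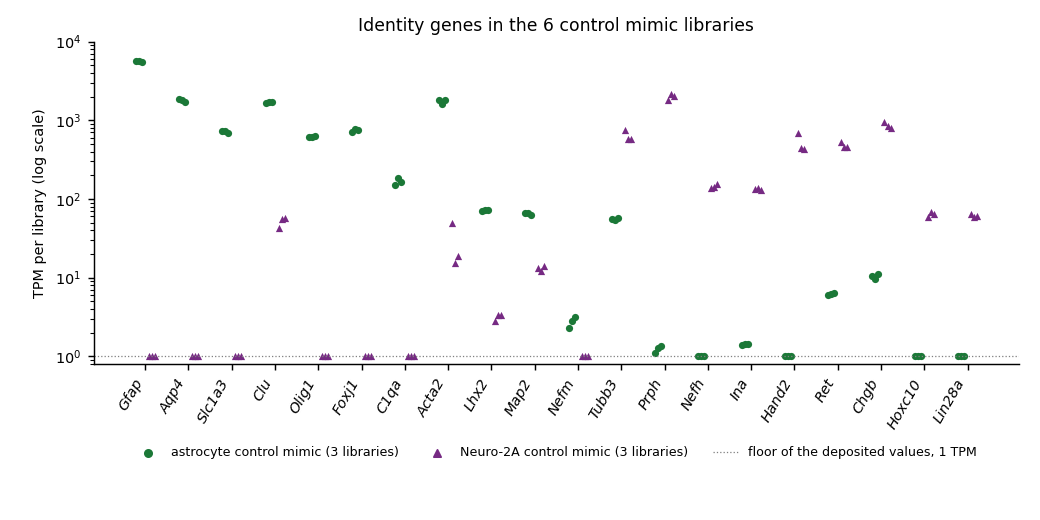
TPM on a log scale for 20 identity genes in each of the 6 control mimic libraries, with circles for astrocyte and triangles for Neuro-2A libraries and a dotted line at the 1 TPM floor. Glial, ependymal, microglial, mural and forebrain genes are high on the left, sympathoadrenal and filament genes are high in Neuro-2A on the right, and Map2 and Nefm are higher in the astrocyte libraries.

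Genes that record position along the body axis differed between the cultures. Of 39 positional transcription factors, 19 could be tested, 12 of which were higher in the astrocyte libraries and 7 in Neuro-2A. The cortical factor Emx2 stood at 28.4, 29.8 and 31.0 TPM, with no Neuro-2A reads, at least 669.9-fold higher. Otx2, a forebrain and midbrain factor, had 7.16, 6.16 and 7.40 TPM and was also without reads in Neuro-2A. Lhx2, a cortical selector factor, was at 70.6, 73.5 and 72.3 TPM against 2.83, 3.32 and 3.39 TPM. Other forebrain factors were read in both, as in Six3 and Otx1, named after their values were seen: Six3 stood at 26.3 to 29.4 TPM against 8.84 to 11.03 TPM, and Otx1 at 16.3 to 17.6 TPM against 5.79 to 6.47 TPM.

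Hox genes, which mark levels behind the forebrain, passed the filter only from the HoxC cluster. Of the 26 Hox genes listed, 6 passed the filter, and these were the 6 HoxC genes listed (Hoxc4, Hoxc5, Hoxc6, Hoxc8, Hoxc9 and Hoxc10). All 6 were without a read in the astrocyte libraries. They thus passed the filter through Neuro-2A alone, so that all were higher in Neuro-2A was fixed by the filter. Hoxc4, Hoxc5 and Hoxc8 are named after their values were seen. Hoxc10, a gene of the lumbar level, was highest at 58.3, 67.7 and 64.6 TPM, followed by the thoracic Hoxc9 at 19.2, 18.8 and 16.8 TPM and Hoxc6 at 13.9, 11.4 and 10.7 TPM. The differences were at least 876.8-fold, 321.6-fold and 210-fold. All 20 listed genes of the HoxA, HoxB and HoxD clusters were at the floor in all 6 libraries. On log2(TPM + 1) values, 3 of the 6 HoxC genes were at least 4 fold apart.

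The Notch, BMP and Id genes, which hold neural cells in a progenitor or glial state, were mostly higher in the astrocyte libraries: 24 of 29 tested, 17 at least 4 fold, with 3 higher in Neuro-2A. All 4 Id genes, inhibitors of proneural factors, were among them. Id3 stood at 620, 628 and 616 TPM against 39.9, 49.4 and 52.2 TPM and Id4 at 300, 304 and 311 TPM against 21.5, 18.5 and 16.8 TPM. Hes1, the main Notch effector, was at 32.9, 30.9 and 35.5 TPM against the floor. Bmp6, a BMP ligand, was at 110, 121 and 118 TPM with no Neuro-2A read, at least 3405-fold higher. The Notch ligand Jag2 was higher in Neuro-2A, at 26.3, 32.3 and 29.4 TPM against 2.65, 3.41 and 3.17 TPM, as were Hes5 and the inhibitory Smad7, whose log2 fold changes were -0.90 and -0.57. The Hes5 call was lost with DESeq2 and with all 9 control mimic libraries of the series in the fit. It was also lost without astrocyte replicate 1, astrocyte replicate 2 or Neuro-2A replicate 3.

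RNA-binding proteins that shape neuronal transcripts leaned to Neuro-2A, with 19 of 25 higher there and 6 in the astrocyte libraries. Elavl4, the neuronal HuD protein, stood at 128, 92 and 93.6 TPM against at most 1.12 TPM, and Rcor2, a corepressor that works with REST, at 100, 108 and 104 TPM against 2.32, 3.06 and 2.74 TPM. Ptbp1, which represses neuronal exons, was higher in Neuro-2A with 362, 350 and 345 TPM against 162, 167 and 162 TPM. Its neuronal paralogue Ptbp2 was higher there too, with log2 fold changes of -1.07 for Ptbp1 and -0.81 for Ptbp2. The astrocyte side included Qk, a splicing factor of glia, at 314, 318 and 313 TPM against 42.2, 43.2 and 43.1 TPM, Celf2 and Khdrbs3.

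Neuro-2A read the fetal Lin28 genes. Lin28a, which blocks maturation of let-7 microRNAs, stood at 64.2, 59.5 and 59.9 TPM with no astrocyte read, at least 1772-fold higher, and Lin28b at 24.8, 21.03 and 20.1 TPM with 1 astrocyte read. Trim71, a let-7 target and RNA-binding protein of stem cells, followed at 25.2, 21.4 and 20.97 TPM. Other fetal genes ran the opposite way: Igf2bp2 was at 16.1, 16.8 and 16.2 TPM in the astrocyte cultures against at most 1.11 TPM, and the imprinted RNA gene Meg3 at 18.3, 20.8 and 21.9 TPM against the floor. Of the 10 tested oncofetal genes, 5 were higher on each side, beside 48% of all tested genes for astrocytes and 41.4% for Neuro-2A.

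Adhesion genes lay mostly on the astrocyte side. Among 28 tested cadherins, immunoglobulin adhesion molecules and CD44, 21 were higher in the astrocyte libraries, 20 at least 4 fold, and the median log2 fold change was 5.83. N-cadherin, Cdh2, stood at 332, 320 and 322 TPM against 6.10, 6.94 and 7.52 TPM. Cadm4, a glial adhesion protein, stood at 687, 679 and 691 TPM against 33.6, 28.8 and 28.6 TPM and Vcam1, a receptor for leukocyte integrins, at 398, 407 and 388 TPM against at most 1.92 TPM. Each of these groups was separated by more than 10 times the spread within it. Chl1, the close homologue of L1, was at 46.8, 46.3 and 45.1 TPM without a Neuro-2A read, at least 4235-fold higher.

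L1 itself was the reverse. L1cam, which guides axons of peripheral and central neurons, stood at 89.4, 130 and 126 TPM in Neuro-2A and at the floor in the astrocyte libraries, a log2 fold change of -7.12 ± 0.199 (SE; edgeR adjusted p = 9.55e-10). It was the 1 gene of its list at least 4 fold higher in Neuro-2A; Ncam1, Cdh15, Cntn2 and Dscam were higher by less, at log2 fold changes from -0.28 to -1.34. The Ncam1 difference, 65.0 to 65.5 TPM against 79.5 to 83.4 TPM, was small beside that of its paralogue Ncam2, which stood at 11.5, 11.8 and 11.5 TPM in the astrocyte libraries with no Neuro-2A read. Cadm1 (log2 fold change 0.06) and Mcam (-0.09) did not pass the test, and with scaling by library totals both were called higher in Neuro-2A, at -0.20 and -0.35. Without Neuro-2A replicate 1, Cadm1 was called higher in the astrocyte libraries at 0.10 (edgeR adjusted p = 0.0347).

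Integrin chains differed around a shared beta chain. Itgb1, the common beta 1 chain, stood at 646, 622 and 636 TPM in the astrocyte libraries and 661, 677 and 680 TPM in Neuro-2A and did not pass the test, with a log2 fold change of -0.04 ± 0.045 (SE; edgeR adjusted p = 0.369). Scaling by library totals put it at -0.30 and higher in Neuro-2A (edgeR adjusted p = 8.93e-05). Of the 20 tested integrin genes, 14 were higher in the astrocyte libraries and 4 in Neuro-2A. The alpha V chain Itgav was at 133, 126 and 123.3 TPM against 20.7, 26.5 and 24.9 TPM. Its partner Itgb8, which activates latent TGF-beta, stood at 143, 143 and 139 TPM against the floor, and Itgb5 at 225, 221 and 219 TPM against 44.5, 54.0 and 47.5 TPM. Another alpha V partner, Itgb3, was at 19.6, 23.01 and 25.4 TPM in Neuro-2A against 1.33, 1.32 and 1.51 TPM, a log2 fold change of -3.99. The laminin receptor chain Itga6, at 104, 118 and 115 TPM in Neuro-2A against 65.2 to 69.6 TPM, was the most abundant alpha chain higher there, with a log2 fold change of -0.70.

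Junction and matrix genes were nearly all higher in the astrocyte libraries, where fibroblast and mural markers, whose part in this was not tested, made 3139 to 3518 TPM against 31.7 to 58.3 TPM in Neuro-2A. Of 17 tested gap and tight junction genes, 15 were higher in the astrocyte libraries, and the 2 exceptions were Gjc1, which encodes connexin 45, and the hemichannel gene Panx1. Mlc1, a membrane protein of astrocyte contacts, was at 1469, 1491 and 1456 TPM and its partner Hepacam at 274, 272 and 272 TPM, with no reads in Neuro-2A and at least 30860-fold and 6845-fold higher. Among 43 tested extracellular matrix genes, 41 were higher in the astrocyte libraries, 33 of them at least 4 fold. Sparc, a collagen-binding matricellular protein, was the highest at 2355, 2336 and 2378 TPM against 104, 150 and 166 TPM. The brain proteoglycan neurocan, Ncan, was at 878, 838 and 826 TPM against 16.7, 11.4 and 13.8 TPM.

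Collagen IV and laminin chains, which build the basement membrane, differed chain by chain. Col4a5 stood at 291, 294 and 282 TPM and Col4a6 at 146, 149 and 140 TPM in the astrocyte libraries without a read in Neuro-2A, at least 14520-fold and 8652-fold higher. Col4a2 was higher in Neuro-2A, at 236, 308 and 309 TPM against 81.7, 77.1 and 80.8 TPM, a log2 fold change of -1.79. Lama4, the laminin alpha 4 chain, was the other gene higher in Neuro-2A, with 31.2, 86.2 and 74.8 TPM against 6.75, 7.04 and 6.32 TPM; replicate 1 had the lowest of the Neuro-2A values. The laminin beta chains were both astrocytic, with Lamb2 at 324, 343 and 328 TPM against 16.8 to 26.04 TPM and Lamb1 at 2.59, 2.71 and 2.88 TPM against the floor.

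**Figure D3:**
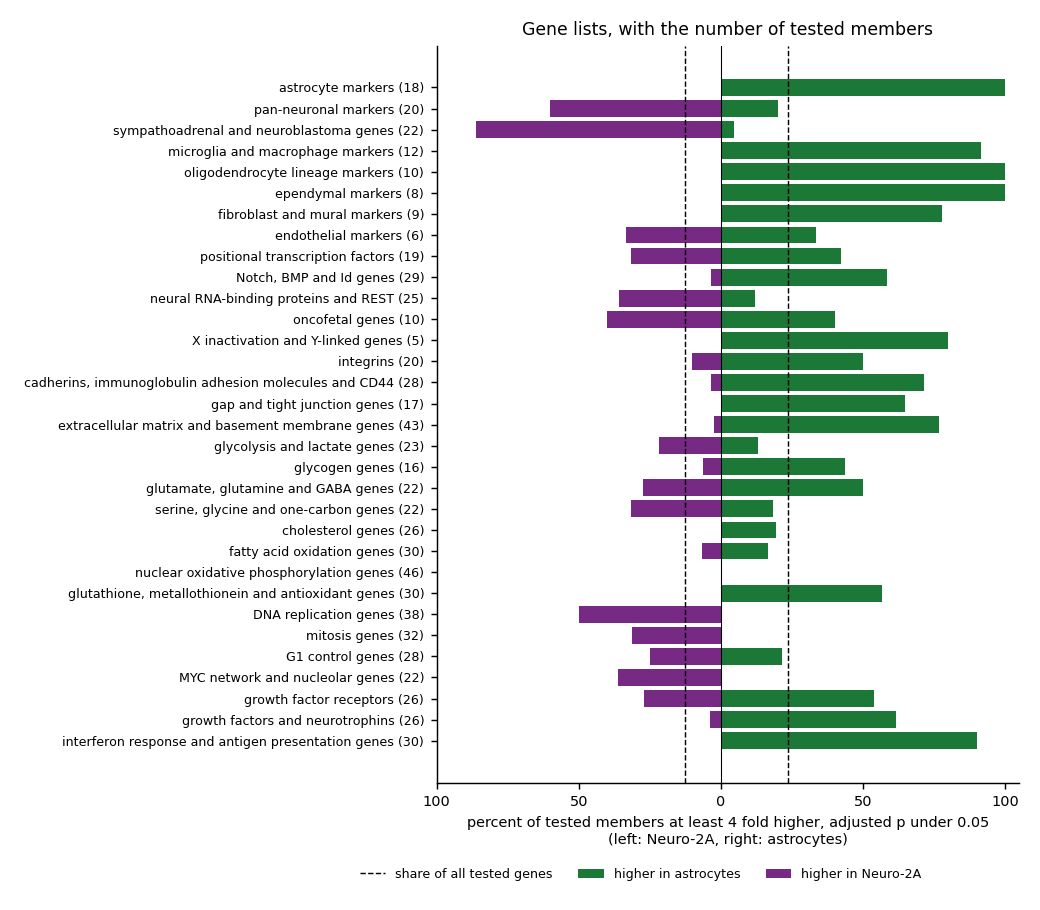
Percent of the tested members of each list that were called and at least 4 fold higher in Neuro-2A (left) or in astrocytes (right), with the number of tested members in brackets. Dashed lines mark the same shares over all 18714 tested genes, 12.6% and 23.5%. No nuclear oxidative phosphorylation gene reached 4 fold, and DNA replication, mitosis and MYC network genes lie wholly on the Neuro-2A side.

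In metabolism, several enzymes were read from different paralogues in the 2 cell types. Lactate dehydrogenase, which interconverts pyruvate and lactate, is a tetramer of chains from Ldha and Ldhb. Ldhb (mm10 chromosome 6, 142490249 to 142507957) stood at 1430, 1421 and 1464 TPM in the astrocyte libraries and at the floor in Neuro-2A, where 3 reads fell on it in all, a ratio of 16920 with a 95% counting interval of 5790 to 82060. Ldha (mm10 chromosome 7, 46841475 to 46855627) was at 209, 204 and 208 TPM in the astrocyte libraries and 961, 1371 and 1275 TPM in Neuro-2A. The astrocyte cultures thus read mostly Ldhb and Neuro-2A almost only Ldha. The lactate carriers were split only in part. Slc16a3, the exporter MCT4, was at 325, 479 and 425 TPM in Neuro-2A against 3.83, 3.83 and 3.59 TPM. Slc16a1, MCT1, was at 240, 238 and 235 TPM in the astrocyte libraries against 122, 122 and 125 TPM, so Neuro-2A read both carriers.

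Across 23 tested glycolysis and lactate genes, 12 were higher in Neuro-2A and 7 in the astrocyte libraries, with a median log2 fold change of -0.36. Over all tested genes these shares were 41.4% and 48%. At least 4 fold higher were 5 and 3 of the list, beside 12.6% and 23.5% of all tested genes. The glucose carrier Slc2a3 was at 114, 182 and 162 TPM in Neuro-2A against 18.4, 18.8 and 18.6 TPM, and the inducible hexokinase Hk2 at 113, 154 and 142 TPM against 33.7, 32.2 and 32.8 TPM. Aldoc, the aldolase of glia, was higher in the astrocyte libraries at 336, 325 and 327 TPM against 5.42, 13.2 and 9.88 TPM. Replicate 1 was also low for Aldoa, the main aldolase gene of both cell types. It stood at 1116 TPM in Neuro-2A replicate 1, just under the astrocyte values of 1147, 1160 and 1134 TPM, and at 2119 and 1778 TPM in replicates 2 and 3. Its call (log2 fold change -0.51 ± 0.19, SE; edgeR adjusted p = 0.0303) was lost with DESeq2, with limma and without any 1 library other than Neuro-2A replicate 1.

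The same holds for genes that did not pass the test. Slc2a1, the basal glucose carrier, was at 87.3, 92.9 and 92.9 TPM in the astrocyte libraries and at 54.7, 118 and 98.8 TPM in Neuro-2A, and Pgk1, phosphoglycerate kinase, at 465, 459 and 466 TPM against 273, 580 and 488 TPM. In both, replicate 1 lay below and replicates 2 and 3 above all astrocyte values. Without replicate 1 both were called higher in Neuro-2A, with log2 fold changes of -0.23 for Slc2a1 (edgeR adjusted p = 0.00253) and -0.18 for Pgk1 (edgeR adjusted p = 0.006). Hk1 and Pfkp were the other genes without a call. Without Neuro-2A replicate 1, 14 glycolysis genes were higher in Neuro-2A, and without any 1 of the other 5 libraries, 10 were. The respiratory subunit Cox4i2, an alternative to the common Cox4i1, moved with them at 13.4, 64.7 and 50.3 TPM in Neuro-2A against 4.42 to 5.37 TPM.

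**Figure D4:**
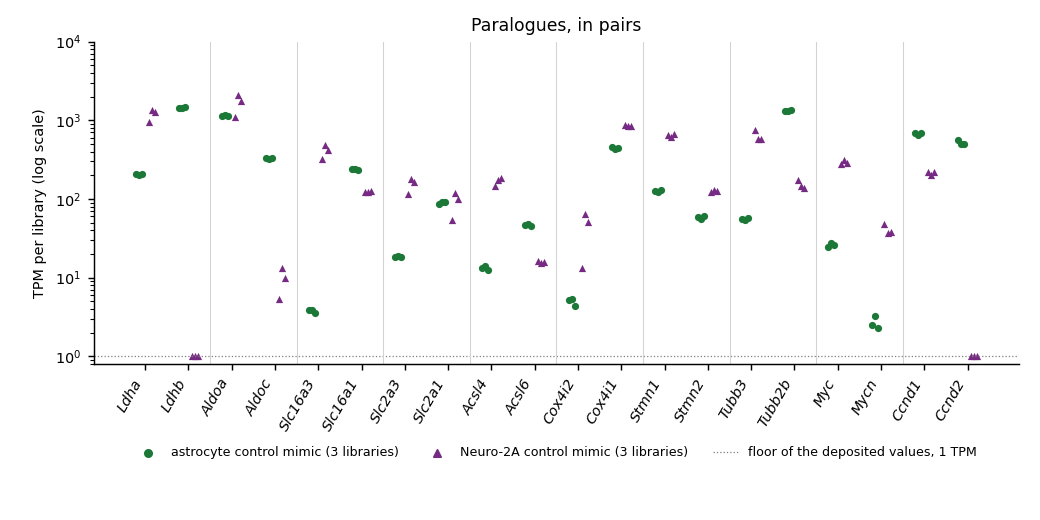
TPM on a log scale for 10 pairs of paralogues in each of the 6 libraries, with circles for astrocyte and triangles for Neuro-2A libraries and the 1 TPM floor dotted. Ldhb and Ccnd2 are at the floor in Neuro-2A, and the lowest Neuro-2A point for Aldoa, Slc2a1 and Cox4i2 is replicate 1.

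Glycogen genes leaned to the astrocytes, the main glycogen store of the brain: 11 of 16 were higher there, 7 at least 4 fold. The brain phosphorylase Pygb was at 486, 454 and 445 TPM against 36.4, 33.4 and 36.8 TPM, and Ppp1r3c, which targets a phosphatase to glycogen, at 66.5, 62.1 and 54.2 TPM against 2.04, 3.31 and 3.50 TPM. Neuro-2A had more of the liver phosphorylase Pygl (16.0, 34.8 and 27.3 TPM against 8.34 to 8.46 TPM) and of the glycogen-binding Stbd1 (85.8, 146 and 130 TPM against 5.54 to 7.27 TPM), and replicate 1 was the lowest for both.

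Of 22 glutamate and glutamine genes, 13 were higher in the astrocyte libraries and 9 in Neuro-2A, beside 48% and 41.4% of all tested genes. Of these, 11 and 6 were at least 4 fold higher, beside 23.5% and 12.6% of all tested genes. Glul, the glutamine synthetase of astrocytes, stood at 939, 923 and 896 TPM against 76.6, 73.0 and 74.8 TPM in Neuro-2A, a log2 fold change of 3.66 ± 0.0504 (SE; edgeR adjusted p = 1.72e-11). Gls2, a glutaminase that runs the reverse reaction, was higher in Neuro-2A at 22.97, 25.9 and 25.3 TPM against the floor. Slc1a5, a glutamine carrier of growing cells, was at 242, 250 and 241 TPM against 3.80, 4.52 and 4.31 TPM. Asns, asparagine synthetase, was the highest of this list in Neuro-2A, at 946, 936 and 938 TPM against 36.6, 36.4 and 34.7 TPM, a log2 fold change of -4.67.

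Serine and one-carbon genes, which feed nucleotide synthesis, leaned to Neuro-2A, with 13 of 22 higher there and 5 in the astrocyte libraries. Over all tested genes these shares were 41.4% and 48%. At least 4 fold higher were 7 and 4 of the list, beside 12.6% and 23.5% of all tested genes. Among those higher in Neuro-2A were enzymes of the mitochondrial arm: Mthfd2 was at 440, 423 and 426 TPM against 16.3, 15.6 and 15.3 TPM, and Shmt2 at 396, 432 and 414 TPM against 46.3, 44.5 and 42.6 TPM. Phgdh, the entry enzyme of serine synthesis, was at 398, 476 and 451 TPM against 97.95, 96.8 and 102 TPM, and Cth, which makes cysteine, at 97.6, 111 and 118 TPM against 3.92 to 4.76 TPM. The 5 genes higher in the astrocyte libraries included Aldh1l1, the cytosolic folate enzyme used as an astrocyte marker, at 703, 689 and 663 TPM against the floor, the glycine cleavage genes Gldc and Amt, serine racemase Srr, and Mthfd2l. The last was at 0.25 and lost its call with scaling by library totals, at -0.01, with upper-quartile scaling, at 0.08, and without astrocyte replicate 2. The media differed in the amino acids named for them, which cannot be told apart from cell type.

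Lipid genes were higher in astrocytes at the export end. Apoe, the main lipoprotein of the brain, stood at 3596, 3916 and 3837 TPM against 19.1, 17.2 and 12.9 TPM, and Abca1, which loads lipid onto it, at 518, 499 and 455 TPM against 10.6, 12.8 and 12.2 TPM. Synthesis was less one-sided: over the 26 cholesterol genes 17 were higher in the astrocyte libraries and 7 in Neuro-2A, and 5 reached 4 fold. Hmgcs1, which makes HMG-CoA, was at 362, 341 and 334 TPM against 47.4 to 55.5 TPM.

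Of 30 fatty acid oxidation genes, 25 were higher in the astrocyte libraries and 3 in Neuro-2A, beside 48% and 41.4% of all tested genes. The median log2 fold change was 1.48. At least 4 fold higher were 5 and 2 of the list, beside 23.5% and 12.6% of all tested genes. Acsbg1, an acyl-CoA synthetase of glia, was at 403, 387 and 388 TPM against the floor, and Cpt1a, the gate of mitochondria, at 154, 154 and 145 TPM against 37.1 to 39.3 TPM. Of the acyl-CoA synthetases, Acsl4, which activates arachidonic acid, was higher in Neuro-2A at 148, 176 and 186 TPM against 12.4 to 13.9 TPM, and Acsl1 by a log2 fold change of -3.07.

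Nuclear genes of oxidative phosphorylation differed little. None of the 46 reached 4 fold in either direction; 29 were higher in Neuro-2A and 11 in the astrocyte libraries, and scaling by library totals changed these to 34 and 4. Atp5b, the catalytic subunit of ATP synthase, was the highest of the list, at 1637, 1500 and 1594 TPM in Neuro-2A against 571, 530 and 537 TPM, and Cyc1, cytochrome c1, had the largest difference at -1.70. Sdha, a subunit of complex II, lay on the astrocyte side with a log2 fold change of 0.67 while its partner Sdhb was at -1.61.

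Antioxidant and metal-binding genes were a strong astrocyte group: 25 of 30 were higher there, 17 at least 4 fold. Metallothioneins bind zinc and copper, and Mt2 stood at 2360, 2534 and 2591 TPM against the floor and Mt3, the brain form, at 1821, 1809 and 1928 TPM against 7.58, 5.20 and 8.14 TPM. The peroxidase Prdx6 was at 1370, 1337 and 1336 TPM against 163, 141 and 147 TPM, and the glutathione transferase Gstm1 at 1489, 1450 and 1536 TPM against 43.3, 67.8 and 75.2 TPM. The 3 genes higher in Neuro-2A were Gsr, Gstp1 and Sod1, with log2 fold changes of -0.72, -0.21 and -0.36. The Gstp1 call was lost without astrocyte replicate 1 or 2 and with all 9 control mimic libraries of the series in the fit. Without Neuro-2A replicate 1, or with scaling by library totals, 5 genes of the list were higher in Neuro-2A.

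The proliferation genes all lay on 1 side. All 38 DNA replication genes and all 32 mitosis genes were higher in Neuro-2A, against 41.4% of all tested genes, with median log2 fold changes of -2.03 and -1.69. Of these, 19 and 10 were at least 4 fold higher. With scaling by library totals, 23 replication genes and 15 mitosis genes were. Cdt1, which loads the replicative helicase, had the largest difference among them, at 192, 196 and 211 TPM against 9.86, 10.2 and 10.9 TPM, a log2 fold change of -4.23 ± 0.0691 (SE; edgeR adjusted p = 3.81e-11). Pcna, the sliding clamp, was high in both cell types, at 178, 192 and 215 TPM against 118, 115 and 128 TPM.

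Proliferation genes were also read in the astrocyte cultures. Cell division itself was not measured, and which cells of these cultures read the genes was not tested. Top2a, which untangles chromosomes, stood at 62.9, 58.7 and 63.4 TPM there against 343, 328 and 348 TPM, and Mki67, the proliferation antigen, at 47.9, 42.9 and 46.9 TPM against 226, 214 and 230 TPM. Cdk1, the mitotic kinase, was at 26.01, 23.9 and 24.6 TPM against 137, 122 and 128 TPM. For each of them the 3 values of a group lay within a narrow range and far from the other group.

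Mitosis genes share a promoter element, the cell cycle homology region (CHR), which binds the DREAM and MYB-MuvB complexes. The letters TTTGAA, searched on both strands from 250 bases before to 50 after each RefSeq gene start (GRCm38.p6), were found in the promoters of 20 of 27 matched mitosis genes, 74.1%, and of 6 of 31 matched DNA replication genes, 19.4%. Of all genes with RefSeq promoters of the same length, 20.2% held them, and of the tested genes among these 14.5%. A gene was counted if any of its promoters held a match, so genes with more starts had more chances. Such a match is a description of letters and not a mapped site. The 180 bases before the start of 3 of the genes described above are shown, since they carry the match within this window, with its letters in capitals.
Cdk1 (chr10:69352913-69353092, - strand): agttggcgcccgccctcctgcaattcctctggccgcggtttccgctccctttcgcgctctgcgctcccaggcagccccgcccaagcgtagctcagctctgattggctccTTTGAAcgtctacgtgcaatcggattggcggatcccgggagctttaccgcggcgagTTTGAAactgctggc
Top2a (chr11:99024190-99024369, - strand): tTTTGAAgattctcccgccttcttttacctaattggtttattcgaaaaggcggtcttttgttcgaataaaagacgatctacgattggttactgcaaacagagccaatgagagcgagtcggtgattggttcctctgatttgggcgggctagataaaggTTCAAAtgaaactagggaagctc
Mki67 (chr7:135716380-135716559, - strand): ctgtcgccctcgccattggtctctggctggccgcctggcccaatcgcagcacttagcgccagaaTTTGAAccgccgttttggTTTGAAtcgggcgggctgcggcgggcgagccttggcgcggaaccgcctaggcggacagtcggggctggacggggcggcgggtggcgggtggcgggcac

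G1 control differed in which cyclin and which inhibitor was read. Ccnd2, cyclin D2, was at 564, 507 and 500 TPM in the astrocyte libraries and at the floor in Neuro-2A, while Ccnd1, cyclin D1, was present in both, at 692, 653 and 686 TPM against 217, 204 and 221 TPM. Downstream of these, Ccne2, cyclin E2, was at 58.4, 44.1 and 57.1 TPM in Neuro-2A against 4.79 to 5.38 TPM, and the activator E2f2 at 47.3, 41.8 and 43.3 TPM against 1.60 to 2.23 TPM. The neighbouring inhibitor genes on chromosome 4 differed in opposite directions. Cdkn2b, p15, stood at 93.8, 106 and 103 TPM in the astrocyte libraries with no Neuro-2A read, at least 1052-fold higher, and Cdkn2a, which encodes p16 and Arf, at 117, 102 and 106 TPM in Neuro-2A against 11.2, 9.99 and 10.9 TPM.

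The p53 target genes Cdkn1a, p21, and Ccng1, cyclin G1, were astrocytic, Cdkn1a at 461, 452 and 461 TPM against 76.1, 127 and 116 TPM and Ccng1 at 640, 605 and 589 TPM against 28.6, 25.96 and 22.8 TPM. Over the 28 genes of G1 control, 14 were higher in Neuro-2A and 11 in the astrocyte libraries, beside 41.4% and 48% of all tested genes. Of these, 7 and 6 were at least 4 fold higher, beside 12.6% and 23.5% of all tested genes. The inhibitors Cdkn1b (log2 fold change 0.11) and Cdkn1c (0.30) and the repressor E2f5 (0.13) did not pass the test, and with scaling by library totals Cdkn1b was called higher in Neuro-2A at -0.15. With DESeq2 size factors (0.12, edgeR adjusted p = 0.048) and without Neuro-2A replicate 1 (0.12, edgeR adjusted p = 0.0177) Cdkn1b was called higher in the astrocyte libraries, so its direction depends on the scaling.

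MYC genes and nucleolar genes, which serve ribosome building, were higher in Neuro-2A in 16 of 22 cases, 8 at least 4 fold. Myc stood at 282, 311 and 288 TPM against 24.5, 27.4 and 26.3 TPM, a log2 fold change of -3.45 ± 0.0673 (SE; edgeR adjusted p = 1.05e-10). Mycn, the gene amplified in human neuroblastoma, was read as well, at 47.8, 37.0 and 37.7 TPM against 2.52, 3.27 and 2.31 TPM, below the Myc level in every Neuro-2A library. The nucleolar protein genes Npm1, at 1752, 1928 and 1914 TPM against 259, 243 and 260 TPM, and Ncl, at 407, 373 and 386 TPM against 137, 133 and 136 TPM, were high there too. The MYC partner Max (log2 fold change 0.01) and the MYC target Odc1 (-0.12) did not pass the test, but were called higher in Neuro-2A with scaling by library totals, at -0.25 and -0.38, and with upper-quartile scaling, at -0.16 and -0.29. Odc1 was also called higher there with limma (adjusted p = 0.0248) and without Neuro-2A replicate 1 or 2. On the astrocyte side were Mycl and the MYC antagonists Mxd1, Mxd4 and Mxi1.

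**Figure D5:**
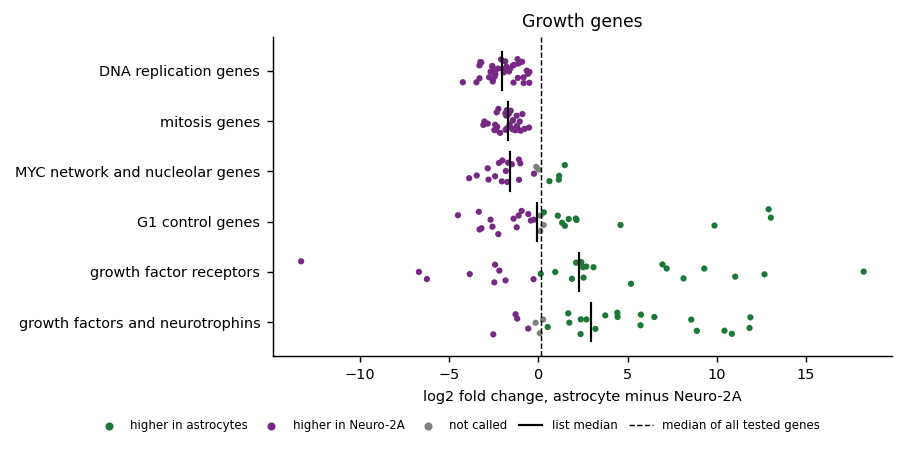
Each point is 1 tested gene of a growth list, placed by its log2 fold change (astrocyte minus Neuro-2A) and coloured by its call, with black bars for list medians and a dashed line for the median of all tested genes (0.139). All 38 replication and all 32 mitosis genes lie to the left of 0, and receptors and growth factors spread to both sides.

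Growth factor receptors differed by cell type. The neurotrophin receptor Ntrk2, TrkB, stood at 271, 271 and 262 TPM in the astrocyte libraries without a Neuro-2A read, at least 38690-fold higher. Ngfr, the low-affinity neurotrophin receptor, was at 239, 267 and 279 TPM in Neuro-2A against 2.32, 2.46 and 2.57 TPM. Fgfr1 was at 203, 209 and 206 TPM in the astrocyte libraries against 47.2, 35.96 and 36.2 TPM. Met, the hepatocyte growth factor receptor, was at 42.6, 41.5 and 39.1 TPM against the floor. In all, 17 of 26 tested receptors were higher in the astrocyte libraries and 9 in Neuro-2A, beside 48% and 41.4% of all tested genes. Of these, 14 and 7 were at least 4 fold higher, beside 23.5% and 12.6% of all tested genes.

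The ligands were more one-sided, with 19 of 26 higher in the astrocyte libraries and 4 in Neuro-2A. Ptn, pleiotrophin, stood at 341, 329 and 334 TPM against 92.6, 105 and 112 TPM, Hbegf, an EGF receptor ligand, at 174, 178 and 192 TPM against 6.61, 9.16 and 10.3 TPM, and Tgfb3 at 163, 154 and 159 TPM against 3.24, 3.00 and 2.85 TPM. Vegfa, the angiogenic factor, was the 1 ligand at least 4 fold higher in Neuro-2A, at 190, 292 and 249 TPM against 39.9, 40.2 and 43.3 TPM. Vegfb, Vegfc and Il6 were higher there by less. Replicate 1 had the lowest Vegfa value of Neuro-2A, as it had for the glycolysis genes.

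Interferon response and antigen presentation genes all lay on the astrocyte side. All 30 were higher in the astrocyte libraries, against 48% of all tested genes, 27 of them at least 4 fold, with a median log2 fold change of 6.25. Ifit3, an interferon-induced RNA response protein, was among the most abundant transcripts at 4704, 4538 and 4468 TPM against the floor in Neuro-2A, where 6 reads fell on it. The chemokine gene Cxcl10 was at 2248, 2527 and 2367 TPM against 8.30, 36.2 and 30.6 TPM, the ubiquitin-like Isg15 at 2279, 2424 and 2361 TPM against 28.3, 53.6 and 45.99 TPM, and the guanylate-binding Gbp2 at 1561, 1613 and 1486 TPM against the floor.

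The transcription factor gene Irf7, which amplifies the interferon response, was at 417, 470 and 428 TPM against the floor. B2m, the light chain of MHC class I, was present in both cell types, at 3644, 3845 and 3770 TPM against 518, 614 and 632 TPM. All 6 libraries received the control mimic and the transfection reagent, and no untransfected library was used here. Microglia markers moved with it: summed, they made 626 to 710 TPM per astrocyte library against 5.86 to 6.70 TPM, and their part in it was not tested.

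The interferon-stimulated response element (ISRE) is the promoter element bound by the STAT and IRF factors of this response. Its core, GAAA followed by any 2 bases and a second GAAA, was searched on both strands in the same windows. It was found in the promoters of 10 of 24 matched genes of the list, 41.7%. Counted by gene in the same way, it was found for 4.0% of all genes and 3.8% of tested genes. The 180 bases before the start are shown for 4 of the genes described above, with the matching letters in capitals.
Ifit3 (chr19:34583349-34583528, + strand): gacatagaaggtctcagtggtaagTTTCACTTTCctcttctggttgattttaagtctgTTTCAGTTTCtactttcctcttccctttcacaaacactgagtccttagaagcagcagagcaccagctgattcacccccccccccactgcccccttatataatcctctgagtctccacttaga
Isg15 (chr4:156200819-156200998, - strand): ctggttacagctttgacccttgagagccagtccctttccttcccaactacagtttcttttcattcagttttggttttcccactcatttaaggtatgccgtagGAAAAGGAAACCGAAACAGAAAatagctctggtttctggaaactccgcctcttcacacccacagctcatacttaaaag
Gbp2 (chr3:142620483-142620662, + strand): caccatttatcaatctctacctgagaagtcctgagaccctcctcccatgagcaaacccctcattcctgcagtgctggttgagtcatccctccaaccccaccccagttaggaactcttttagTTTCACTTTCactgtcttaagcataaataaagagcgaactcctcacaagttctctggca
B2m (chr2:122147507-122147686, + strand): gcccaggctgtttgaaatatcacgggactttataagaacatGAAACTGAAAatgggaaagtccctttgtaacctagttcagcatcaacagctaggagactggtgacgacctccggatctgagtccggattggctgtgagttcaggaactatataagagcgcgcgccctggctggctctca
Within the 180 bases shown, Isg15 holds 3 overlapping matches, starting 78, 72 and 66 bases before the gene start. Ifit3 holds 2 there, and Gbp2 and B2m hold 1 each. Matches outside these bases or in other promoters of a gene are not in these numbers. Of the 4 genes, B2m was high in both cell types, while Gbp2, also with 1 match, was at the floor in Neuro-2A. Whether the number of matches bears on these levels was not tested.

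The 12 largest fitted differences on each side were taken among coding genes with at least 50 TPM on the higher side; most rest on a group without reads, so their order depends on the fit. On the astrocyte side, after Slc1a3, Ntrk2 and Mlc1 came the receptor phosphatase Ptprz1 (218 to 233 TPM), the protease inhibitor A2m (370 to 402 TPM), the claudin-like Tmem47 (674 to 682 TPM), Fabp7, the interferon-inducible GTPase Iigp1 (712 to 771 TPM), Col4a5, the endothelin receptor Ednrb (412 to 432 TPM), the sulfotransferase Chst2 (226 to 229 TPM) and the receptor auxiliary subunit Neto2 (252 to 266 TPM). All 12 were without a read in Neuro-2A. On the Neuro-2A side the same rule gave, among others, Hand2, Lin28a and Hoxc10, the WNT inhibitor Dkk1 (mean 237 TPM ± 9.88, SD, n = 3), the calcium channel subunit Cacng3 and the endocrine granule protein Resp18.

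The 12 on the Neuro-2A side also included Nxf3, a relative of the mRNA export factor that is known from testis, with a mean of 210 TPM ± 10.5 (SD, n = 3) against no astrocyte read, at least 4648-fold. Asz1, a protein of the piRNA pathway of germ cells, had a mean of 102 TPM ± 1.98 (SD, n = 3), and Nlrp4c, an oocyte gene, 61.1 TPM ± 2.60 (SD, n = 3). The reproductive homeobox genes Rhox2d and Rhox2a had means of 215 and 142 TPM. They belong to a family of near-identical copies on the X chromosome among which reads can be split, so the level of each copy is uncertain.

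Over all coding genes, 11051 were above the floor in all 6 libraries. A further 2226 were above it in all astrocyte and in no Neuro-2A library, and 707 in all Neuro-2A and in no astrocyte library.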

How the data were processed

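RNA was read as directional poly(A) libraries, 3 from astrocytes and 3 from Neuro-2A with the control mimic, per the labels. Reads were trimmed with Trimmomatic 0.39 and aligned with STAR 2.7.10b to mm10, per the submitters' processing notes; which counter, strand setting and gene models were used is not stated there, so reads of overlapping antisense genes may not be separated. The authors deposited estimated counts per gene, which were rounded to whole numbers. The authors also deposited log2 TPM values with levels of 1 TPM or less set to 0, which were converted back to TPM. Another 18 per-sample columns were not used.

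Genes were filtered with filterByExpr (minimum count 10), scaled by TMM and tested with the quasi-likelihood test of edgeR 4.0.16 in R 4.3.3, on the 6 libraries without a covariate, with Benjamini-Hochberg adjustment. Folds against a group without reads are lower bounds with that group set at 3 reads in total; with 1 to 3 reads, the ratio has an exact 95% counting interval, which covers counting error only. The fit was tested on simulated data. Alternatives used DESeq2 1.42.0, limma 3.58.1, other scalings and filters, a replicate block and each library left out. Named genes are Gfap and Tubb3, the 12 largest fold changes each way among coding genes with at least 50 TPM in the higher group and no overlap, the 4 most abundant members of each list and its 3 largest fold changes each way, every member where a count is 5 or fewer, and all paralogue pairs, apart from genes not reported here; the text says where others were chosen after their values were seen. Members and lists were chosen with earlier results of these data known. Promoters are from RefSeq (GRCm38.p6). Those genes are still counted in the totals of their lists.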

Additional observations from a re-analysis of the deposited data

How the results depend on the processing

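Over the alternatives run, the count of genes higher in astrocytes ranged from 7907 with scaling by library totals to 10948 without a filter, and the count higher in Neuro-2A from 7398 with all 9 control mimic libraries to 9011 without a filter. More genes were higher in Neuro-2A than in astrocytes with library totals (8825) and with upper-quartile scaling (8454 against 8259). The counts at least 4 fold apart were 2481 for astrocytes and 1420 for Neuro-2A with limma on log2(TPM + 1), where the added constant shrinks the folds of low genes, and 6083 and 3497 without a filter. With an 8 fold limit, 1317 genes were higher in Neuro-2A. Leaving out 1 library gave 8853 to 9366 genes higher in astrocytes and 7651 to 7996 higher in Neuro-2A, and at least 4 fold apart 4440 to 4614 and 2455 to 2524. With the replicate number as a block, 8929 and 7686 genes were called, 4391 and 2358 of them at least 4 fold apart. Same-numbered libraries did not deviate together (correlations of -0.0151, 0.0559 and -0.0445), and other-numbered ones gave -0.032 to 0.0532. With so few libraries this cannot show whether the numbers pair the samples. Scaling by library totals reversed Cadm1 (-0.20), Cdkn1b (-0.15), Max (-0.25) and Mthfd2l (-0.0061), upper-quartile scaling reversed Max (-0.16), and leaving out Neuro-2A replicate 1 reversed Pgk1 (-0.18) and Slc2a1 (-0.23), which reached 0.31 and 0.27 without Neuro-2A replicate 2. Of 1980 counts over lists and settings, 25 moved by more than 1.5 times. The floor of 1 TPM hides differences between low genes on the TPM scale.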

Other observations

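Genes of the sex chromosomes also differed. Xist, the RNA that silences an X chromosome, was higher in Neuro-2A, with a log2 fold change of -1.15. The 4 tested Y-linked genes Ddx3y, Kdm5d, Eif2s3y and Uty were higher in the astrocyte libraries and at the floor in Neuro-2A. Xist was also above the floor in every astrocyte library, so Xist and Y-linked genes were read side by side there. The sex of the animals behind the astrocyte cultures is not given in the labels, so sex and cell type cannot be told apart for these genes. Endothelial markers were low in both cell types, with summed levels of 5.50 to 5.91 TPM in the astrocyte libraries and 9.77 to 11.8 TPM in Neuro-2A.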
